A study of Mus musculus with 17 samples.

Results

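The effect of anti-DEC-OVA at 48 h was examined in germinal centre (GC) B cells that held many transcripts of the cell-cycle genes *Mki67*, *Top2a*, *Cenpf*, *Ccnb1*, *Cdc20* and *Plk1*. Cells were chosen by these 6 genes: a cell was gated when they made up at least 10 of every 10000 of its unique molecular identifiers (UMIs), which count captured mRNA molecules. The gate held 6566 of the 9977 cells of the 15 mice at 48 h, 1859 in 6 untreated and 4707 in 9 treated mice, out of 23698 cells kept in the time course. The remaining 3411 cells of the same mice are called other cells here.

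GC B cells divide and mutate their antibody genes in the dark zone (DZ) and compete for help from follicular helper T (Tfh) cells in the light zone (LZ). Late in the cycle, cyclin B with its kinase drives entry into mitosis, *Plk1* and the Aurora kinases build the spindle, and *Cdc20* activates the anaphase-promoting complex (APC), which destroys securin and cyclin B so that sister chromatids part. Signals from CD40 and the B cell receptor raise NF-kB targets, MHC class II and costimulatory genes in LZ cells, and strong help from Tfh cells is followed by several DZ divisions in sequence, known as inertial cycling.

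All mice had received B1-8hi B cells, which are specific for the hapten NP and pair *Ighv1-72*/*Ighj2* with *Iglv1*/*Iglj1*, and had been immunized with NP(19)-OVA in the footpad. A minority of the transferred cells carried DEC-205, encoded by *Ly75*, together with an H2B-mCherry reporter (donor cells were CD45.2/2 and carried Vav-tTA, in which Vav drives the transactivator in blood cells, with *Col1a1* tetO-H2B-mCherry/WT and heterozygous B1-8hi), and the others were *Ly75*-/-. Hosts were CD45.1/1 mice primed with OVA, both sexes were used, and the study states 1 range of ages for all its adult mice and none per group. Treated mice received anti-DEC-OVA, an antibody to DEC-205 coupled to OVA, at day 7 after immunization, and the untreated mice of the same day did not. Groups were sampled at 0 h (9 mice), 48 h (6 untreated and 9 treated) and 72 h (8 untreated and 7 treated). Live GC B cells from lymph nodes were sequenced with the 10X 5′ platform in 2 pools, a larger one with 4 untreated and 6 treated mice at 48 h and a smaller one with 2 and 3. Mice within a pool were marked with hashtag antibodies and shared 1 library, so treatment and library were not confounded. The antibody acts on DEC-205+ cells. The study describes the mutations of these time points as those of DEC-205+ cells, whereas the labels name live GC B cells and no gate on DEC-205. The cells were taken as labelled, and where *Ly75*-/- or host cells were among them, a change inside a cell and a change in the share of the DEC-205+ cells cannot be told apart. Fewer cells in a state and less RNA per cell also cannot be told apart in sums over the cells of a mouse. In the smaller pool the B1-8hi pairing was read in 45.9% to 50.2% of gated cells of untreated mice and 58.1% to 62.1% of treated mice. In the larger pool these shares were 71.4% to 79.1% and 74.5% to 78.6%. The part of this share in the results was not tested by itself, and counts from B1-8hi cells only are given for some lists.

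The label of G2-M cells held only in part. At least 1 UMI of *Cenpf* was found in 65.7% of gated untreated and 71.96% of gated treated cells, of *Ccnb1* in 52.9% and 66.3%, of *Cdc20* in 58.5% and 72.7%, and of *Plk1* in 53.9% and 66.4%. In the other cells of the same mice these shares were between 0.726% and 3.87% (untreated) and between 1.11% and 5.65% (treated), at a lower median depth of 5054 and 6860 UMIs against 9543 and 15295 in gated cells. None of these 4 markers was seen in 18.3% of gated untreated and 10.9% of gated treated cells, which entered the gate by *Mki67* or *Top2a*. The 4 markers alone came to at least 10 per 10000 UMIs in 33.1% and 34.9% of gated cells. The gate thus took in cells that were cycling more broadly, and they are called gated cells here rather than G2-M cells. Just inside the gate, between 10 and 15 per 10000, were 223 untreated and 363 treated cells, with *Plk1* seen in 11.2% and 15.2%. Just outside it, between 5 and 10, were 392 and 358 cells, with *Plk1* seen in 2.04% and 3.07%.

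By mouse, the gate held 39.7%, 43.1% and 57.1% of the kept cells of untreated mice (lowest, median and highest) and 70.4%, 74.0% and 84.3% in treated mice. Every treated mouse lay above every untreated one, in either pool. These shares come from the genes that set the gate and are given as a description. The level of the 6 genes within the gate was alike, with medians per mouse of 35.3 to 48.4 per 10000 UMIs in untreated and 35.8 to 45.3 in treated mice. The depth was not: the median gated cell held 7358 to 13661 UMIs in untreated and 12115 to 17790 UMIs in treated mice. Summed over the gated cells of a mouse, this gave 2725192 to 4448987 UMIs in untreated and 6737417 to 12333524 in treated mice. Mitochondrial UMIs differed by pool more than by treatment (medians per mouse of 2.13% to 4.51% untreated and 2.13% to 4.33% treated). The part of depth in the results was not tested by itself, and counts from cells thinned to 2871 UMIs each are given beside most of the lists.

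**Figure D1:**
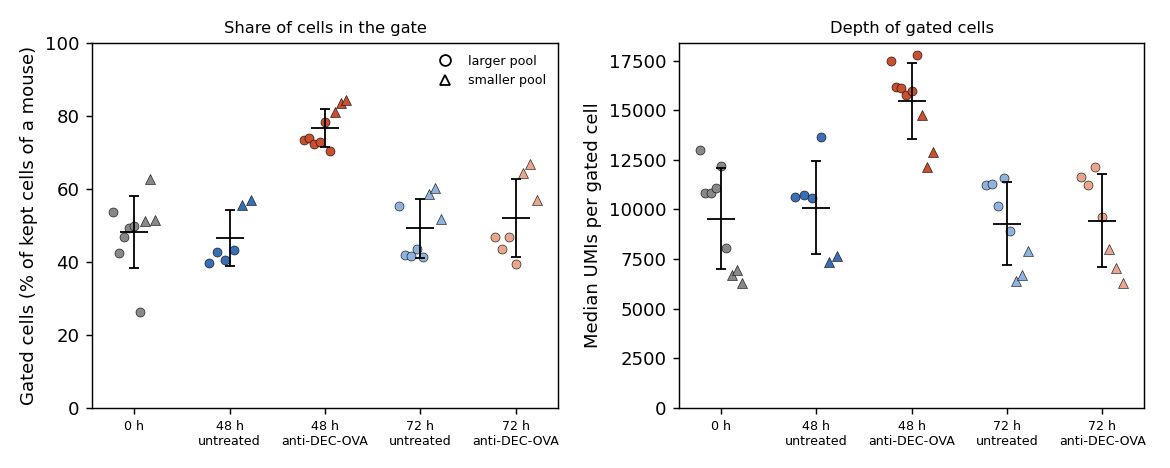
Share of kept cells in the gate (left, %) and median UMIs per gated cell (right) for each mouse, by group and pool, with the group mean and SD as bars. Treated mice at 48 h sit at 70.4% to 84.3%, above the 39.7% to 57.1% of untreated mice at 48 h, and their gated cells are deeper.

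Gated cells held GC B cell transcripts, as did the other cells of the same mice. All 8 GC B cell markers, among them *Bcl6*, *Fas*, *Mybl1*, *S1pr2*, *Gcsam*, *Rgs13* and *Cd79a*, were present, with summed levels of 2914 to 3412 CPM in untreated and 2458 to 3086 CPM in treated mice (CPM, the UMIs of a gene scaled to 1 fixed total for every mouse). Markers of follicular dendritic and stromal cells summed to 0 to 1.43 CPM in untreated and 0 to 0.408 CPM in treated mice, with *Col1a1* and *Col1a2* at 0 in both groups. Myeloid and dendritic cell markers came to 5.39 to 9.69 CPM in untreated and 4.16 to 9.92 CPM in treated mice with *S100a8* at 0 in both, and markers of NK and erythroid cells to 3.37 to 7.71 CPM in untreated and 3.35 to 7.54 CPM in treated mice, with *Gzma* and *Hba-a1* at 0 in both. T cell markers came to 106 to 168 CPM in untreated and 92.2 to 137 CPM in treated mice. *Lck* and *Cd2* made up nearly all of that sum, while the defining gene *Cd3e* had 1 UMI in each group. Plasma cell genes summed to 1261 to 2214 CPM in untreated and 1658 to 2345 CPM in treated mice. Memory and naive B cell genes came to 367 to 452 CPM and 262 to 326 CPM. In the other cells the GC B cell markers summed to 3826 to 4607 CPM in untreated and 3076 to 4584 CPM in treated mice. These sums are CPM of the UMIs as counted, and the levels of single genes given next were also scaled with edgeR's TMM factors.

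The promoters of a G2-M gene, an LZ gene, a class II gene and *Pttg1* are shown because the results turn on these groups. Promoters of RefSeq (GRCm38.p6, 250 bases before to 50 after the start) were found for 441 of the 552 genes of the lists. Searched on both strands were CCAAT, the box bound by NF-Y, TTTGAA, the core of the cell-cycle homology region (CHR) of late cell-cycle genes, and a form of the NF-kB site that reads GGG, any 2 bases, TT, any 1 base and CC. Also searched were CACGTG (E-box), TGACG (part of the cyclic AMP element) and an interferon element, found in 0 of 6 gate genes and in 8.09%, 23.0% and 3.99% of all genes. TGACG was found in 9 of 16 LZ genes and 2 of 9 class II genes, and in 38.2% of the genes tested in gated cells. In the same 2 groups CACGTG was found in 2 of 16 and 1 of 9, and the interferon element in 0 of 16 and 1 of 9. Matches are in capitals, for CCAAT and TTTGAA in *Plk1* and *Pttg1*, for the NF-kB form in *Nfkbia* and for CCAAT in *H2-Oa*.
Plk1: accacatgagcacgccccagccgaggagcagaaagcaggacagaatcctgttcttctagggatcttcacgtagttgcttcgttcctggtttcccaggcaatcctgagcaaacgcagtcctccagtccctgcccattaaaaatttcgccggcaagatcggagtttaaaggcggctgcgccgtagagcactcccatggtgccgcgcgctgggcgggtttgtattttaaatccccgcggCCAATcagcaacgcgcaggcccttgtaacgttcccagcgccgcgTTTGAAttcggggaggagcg
Pttg1: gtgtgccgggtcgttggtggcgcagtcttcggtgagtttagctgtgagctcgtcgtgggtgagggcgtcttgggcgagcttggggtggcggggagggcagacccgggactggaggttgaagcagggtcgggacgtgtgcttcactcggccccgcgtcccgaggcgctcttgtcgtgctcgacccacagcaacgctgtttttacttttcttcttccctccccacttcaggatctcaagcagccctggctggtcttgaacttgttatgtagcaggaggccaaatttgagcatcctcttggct
Nfkbia: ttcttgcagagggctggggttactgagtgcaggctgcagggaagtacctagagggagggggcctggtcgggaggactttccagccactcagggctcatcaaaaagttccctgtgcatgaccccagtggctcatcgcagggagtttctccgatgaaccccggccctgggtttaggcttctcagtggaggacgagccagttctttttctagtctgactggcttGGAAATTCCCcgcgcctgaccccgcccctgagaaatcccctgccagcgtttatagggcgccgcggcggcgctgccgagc
H2-Oa: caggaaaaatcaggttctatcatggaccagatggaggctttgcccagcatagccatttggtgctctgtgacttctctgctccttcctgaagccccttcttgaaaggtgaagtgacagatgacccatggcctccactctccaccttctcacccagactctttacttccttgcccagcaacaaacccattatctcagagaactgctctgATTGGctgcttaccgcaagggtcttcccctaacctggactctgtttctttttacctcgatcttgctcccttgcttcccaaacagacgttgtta
The windows lie at chr7:122159185-122159484, plus strand (*Plk1*), chr11:43425932-43426231, minus strand (*Pttg1*), chr12:55492598-55492897, minus strand (*Nfkbia*) and chr17:34092129-34092428, plus strand (*H2-Oa*). *Plk1* holds CCAAT 14 bases before the start and TTTGAA 30 bases after it. *Nfkbia* holds the NF-kB form 29 bases before the start and *H2-Oa* the box in reverse, 43 bases before it. The *Pttg1* window holds neither CCAAT nor TTTGAA. By gene, CCAAT was found in 6 of 6 gate genes, in 7 of 9 class II genes, in 3 of 16 LZ genes and in 41.1% of all 27025 genes in the table. TTTGAA was found in 5 of 6 gate genes, in 0 of 9 class II genes, in 4 of 16 LZ genes and in 20.2% of all genes. The NF-kB form was found in 5 of 16 LZ genes, in 2 of 9 class II genes and in 5.48% of all genes. These are matches of letters and not tests of binding.

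Between treated and untreated mice, 2118 of the 9764 genes tested differed in gated cells (21.7%; edgeR, adjusted p below 0.05), 1149 higher (11.8%) and 969 lower (9.92%). Most changes were small. Only 41 of the higher and 130 of the lower genes moved by more than 1.5-fold, and the median of the log2 fold changes of all 9764 genes was −0.0029. In the other cells, 1314 of 9066 genes were called (14.5%), 7.45% higher and 7.05% lower. Over all kept cells of a mouse 4843 of 10220 were called (47.4%), 26.3% higher and 21.1% lower. Littermates were divided over the groups, and the p-values set each effect against the spread between recipient mice. Which donor gave the transferred cells of each mouse is not stated, so a spread between donors was not tested. Genes are described by 28 lists of function and cell type, and by the largest changes. Where 0 genes of a list are given as called in a direction for the 48 h effect in gated cells, with cells not thinned, DESeq2 also called 0, and the count at an unadjusted p below 0.05 is given where it was above 0.

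Of 128 genes for mitotic entry, kinetochores and the spindle checkpoint, spindle motors and cytokinesis, condensin and mitotic chromatin, and the APC, 14 were higher, 3 lower and 111 not called, with a median log2 fold change of 0.05. Over all genes tested 11.8% were higher and 9.92% lower. With thinned cells 12 were higher and 4 lower, in the larger pool alone 6 and 1, in the smaller 5 and 1, without a term for the pool 3 and 1, and with the gate raised to 20 per 10000 UMIs 7 and 15. Over all kept cells, 119 of the same 128 were higher and 1 lower, with a median of 0.41, where 26.3% of all genes were higher and 21.1% lower. The gate sets a floor for the summed level of 6 genes of this program, so the choice of cells bears on these counts. The gate genes were near their untreated level (log2 fold changes from −0.07 for *Cenpf* to 0.24 for *Plk1*), and are given with no test.

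Among the other mitotic kinases and regulators, *Aurka*, a kinase of spindle poles, was at 74.6 to 109.6 CPM (median 99.2) in untreated mice and 99.6 to 136 CPM (median 114) in treated mice (log2 fold change 0.30, standard error 0.0659, edgeR adjusted p = 0.000883). The 2 ranges overlapped only between 99.6 and 109.6 CPM. *Cdc25a*, a phosphatase that activates cyclin-dependent kinases, had a log2 fold change of 0.22 (edgeR adjusted p = 0.00737), and *Mastl*, a kinase that holds back mitotic exit, 0.18 (edgeR adjusted p = 0.0343). Kinetochore genes *Zwint* (0.24), *Cenpw* (0.23) and *Cenph* (0.18) rose, and the checkpoint kinase gene *Bub1b* fell by 0.14 on the log2 scale (edgeR adjusted p = 0.0408). The tubulin gene *Tubb4b* was the 1 gene of 32 for spindle motors and cytokinesis that rose (0.20, edgeR adjusted p = 0.0075). In chromatin, *H2az1* (0.19), *Cbx5* (0.13) and the condensin gene *Smc2* (0.13) rose and *Lbr*, which tethers chromatin to the nuclear envelope, fell (−0.15). The APC subunit gene *Cdc16* was higher (36.8 to 46.1 CPM (median 42.4) in untreated mice and 47.1 to 60.3 CPM (median 53.6) in treated mice, with no overlap; log2 fold change 0.35, standard error 0.0678, edgeR adjusted p = 0.000201), as was *Ube2s* (0.27), the enzyme that extends ubiquitin chains for the APC.

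*Pttg1*, which encodes securin, fell while most of this program was not called. It was at 110.3 to 154 CPM (median 140.3) in untreated mice and 49.1 to 66.1 CPM (median 54.9) in treated mice, 2.43-fold lower, and no treated mouse came near an untreated one (log2 fold change −1.28, standard error 0.0638, edgeR adjusted p = 1.34e-20). The log2 fold change was −1.30 in the larger and −1.24 in the smaller pool. At 0 h, gated cells had 95.5, 125 and 148 CPM (lowest, median and highest of 9 mice), close to the untreated level at 48 h. At 72 h the untreated mice had 116, 127 and 149 CPM and the treated mice 38.3, 52.1 and 63.8 CPM, so the treated mice were as low at 72 h as at 48 h. In the other cells *Pttg1* was low in both groups, at 22.6, 35.5 and 40.9 CPM in untreated and 26.9, 42.8 and 53.9 CPM in treated mice (log2 fold change 0.38 (edgeR adjusted p = 0.0287)). The effect in gated cells was lower than in other cells by 1.67 on the log2 scale, standard error 0.120, edgeR adjusted p = 1.5e-10. *Pttg1* lies on chromosome 11 of GRCm39, 43311071 to 43321000.

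Genes for S phase were higher or not called. Of 47 genes for DNA replication and nucleotide supply, 24 were higher and 0 lower (median 0.17), against 11.8% higher over all genes tested. With thinned cells 22 were higher and in cells gated by *Cenpf*, *Ccnb1*, *Cdc20* and *Plk1* alone 38, but the count was 15 in B1-8hi cells only, 7 in the larger and 13 in the smaller pool alone, and 2 without a term for the pool (median 0.16). *Rrm2*, a subunit of ribonucleotide reductase that makes the building blocks of DNA, was at 195 to 312 CPM (median 280.1) in untreated mice and 273 to 372 CPM (median 338) in treated mice, and the ranges overlapped (log2 fold change 0.30, standard error 0.0724, edgeR adjusted p = 0.00203). *Dut*, which removes dUTP (0.30, edgeR adjusted p = 4.02e-05), and the licensing factor gene *Cdt1* (0.29, edgeR adjusted p = 0.000989) also rose. In other cells 38 of the 47 genes were higher (median 0.61), where 7.45% of all genes were. Over all kept cells 47 of 47 were higher, where 26.3% of all genes were. Tested for a difference between the classes, 9 of the 47 had a lower and 0 a higher effect in gated cells. Over all genes tested for it these shares were 0.938% and 0.116%. The gate was set by cell-cycle genes, so the choice of cells bears on this comparison. *Mki67* was seen in 99.5% of gated untreated and 99.7% of gated treated cells. In other cells it was seen in 47.3% and 62.2%. The part of the gate in the differences of S phase genes was not tested.

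The D-type cyclins parted. They bind CDK4 and CDK6 and start the phosphorylation of the retinoblastoma protein in G1, and cyclin D3 is the form that sustains DZ cycling. *Ccnd3* was at 254 to 439 CPM (median 324) in untreated mice and 334 to 438 CPM (median 394) in treated mice, and the ranges overlapped (log2 fold change 0.21, standard error 0.0630, edgeR adjusted p = 0.0142). In other cells its log2 fold change was −0.20 (edgeR adjusted p = 0.0488), and the difference between the classes was 0.42 (standard error 0.0833, edgeR adjusted p = 0.00724), which was not called with thinned cells. *Ccnd2*, a cyclin induced by mitogenic signals, was at 4.48 to 19.0 CPM (median 10.8) in untreated mice and 1.38 to 5.03 CPM (median 4.53) in treated mice (log2 fold change −1.73, standard error 0.351, edgeR adjusted p = 0.000351). The lowest untreated mouse lay within the treated range and the other 5 lay above every treated mouse. Its difference between the classes was −1.87 (standard error 0.351, edgeR adjusted p = 0.00326). *Cdk4* (0.26, edgeR adjusted p = 0.00101) and *Cdk6* (0.25, edgeR adjusted p = 0.0377) rose, and *E2f5*, a repressive E2F, fell (−0.31, edgeR adjusted p = 0.00211). Of the 19 genes of G1 control tested, 4 were higher and 2 lower, against 11.8% and 9.92% over all genes tested. With thinned cells 2 of 18 were higher and 1 lower. The counts were 1 and 1 of 19 in the larger pool alone, 2 and 2 of 20 in the smaller, and 0 and 1 of 19 without a term for the pool.

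LZ genes fell in gated cells. Of 22 tested genes of CD40 and LZ activation, 18 were lower and 0 higher, with a median log2 fold change of −0.53, against 9.92% lower over all genes tested. With thinned cells 12 of 20 were lower and 0 higher, in cells gated by the 4 G2-M markers 14 of 20, in the larger and the smaller pool alone 13 and 11 of 22, and without a term for the pool 12 of 22. LZ genes also fell in other cells, where 10 of 22 were lower (median −0.26) beside 7.05% of all genes. Over all kept cells 22 of 24 were lower (median −0.69), where 21.1% of all genes were. *Cd83*, which stabilizes MHC class II at the surface and marks LZ cells, was at 179.9 to 229 CPM (median 201) in untreated mice and 82.9 to 128 CPM (median 115) in treated mice, with no overlap (log2 fold change −0.87, standard error 0.0769, edgeR adjusted p = 1.5e-11). The NF-kB form described for *Nfkbia* was found in 12.3% of genes called lower and 5.69% of those called higher that had a promoter in the table, and in 6.40% of all tested genes that had one. *Nfkbia*, the NF-kB inhibitor that NF-kB itself induces, was at 113 to 189 CPM (median 166) in untreated mice and 58.4 to 113 CPM (median 98.6) in treated mice (log2 fold change −0.83, standard error 0.0876, edgeR adjusted p = 2.36e-09), and the ranges met only at their ends. *Il4i1*, an amino-acid oxidase induced by CD40 and IL-4, was at 27.5 to 58.6 CPM (median 42.8) in untreated mice and 14.973 to 23.0 CPM (median 20.3) in treated mice, with no overlap (log2 fold change −1.09, standard error 0.142, edgeR adjusted p = 3.67e-07). *Irf4*, the transcription factor that follows strong B cell receptor and CD40 signals, was at 7.21 to 31.2 CPM (median 18.5) in untreated mice and 4.06 to 11.4 CPM (median 7.54) in treated mice (log2 fold change −1.12, standard error 0.200, edgeR adjusted p = 6.6e-05). The 2 untreated mice of the smaller pool lay within the treated range and the 4 of the larger pool above it. At 72 h, *Cd83* in treated mice was back at 148, 184 and 219 CPM beside 179, 200.5 and 215 CPM in untreated mice (lowest, median and highest).

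MHC class II genes fell as a block. All 12 genes of class II presentation were lower in gated cells (median −0.34), as they were with thinned cells and with the gate of 4 markers, against 9.92% over all genes tested. Without a term for the pool 3 of the 12 passed, at the same median (−0.34). *Ciita*, the coactivator that class II transcription depends on, was at 208 to 249 CPM (median 221) in untreated mice and 157 to 191 CPM (median 169.8) in treated mice, with no overlap (log2 fold change −0.40, standard error 0.0522, edgeR adjusted p = 4.07e-07). *H2-Oa*, a subunit of the class II regulator H2-O, was at 99.3 to 164 CPM (median 142) in untreated mice and 53.4 to 115 CPM (median 98.9) in treated mice (log2 fold change −0.67, standard error 0.0891, edgeR adjusted p = 4.74e-07), where the 3 treated mice of the smaller pool were the lowest. *H2-Ob*, the other subunit, fell by 0.41 on the log2 scale (edgeR adjusted p = 7.11e-06), and *Ifi30*, a thiol reductase of antigen processing, by 0.54 (edgeR adjusted p = 2.09e-07). In the other cells 11 of the 12 were lower (median −0.26, where 7.05% of all genes tested in those cells were lower), and 0 of the 12 had an effect that passed the edgeR test of a difference between gated and other cells (2 at an unadjusted p below 0.05).

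Of 19 B cell receptor signalling genes, 10 were lower and 0 higher (median −0.15), against 9.92% lower and 11.8% higher over all genes tested. The count of lower genes was 10 with thinned cells and 3 without a term for the pool. It was 7 in the larger and 6 in the smaller pool alone. In other cells 10 of the 19 were lower (median −0.19), where 7.05% of all genes were. Of the 19, 1 had an effect that was called lower in gated than in other cells and 0 a higher one. *Cr2*, the complement receptor CD21, was at 67.3 to 92.5 CPM (median 71.7) in untreated mice and 21.8 to 55.5 CPM (median 31.9) in treated mice (log2 fold change −1.16, standard error 0.180, edgeR adjusted p = 9.18e-06), *Fcer2a*, the low-affinity IgE receptor CD23, at 115 to 195 CPM (median 157) in untreated mice and 56.9 to 111 CPM (median 86.8) in treated mice (log2 fold change −0.95, standard error 0.100, edgeR adjusted p = 2.02e-09), and in both the groups did not overlap. *Cd72*, an inhibitory coreceptor, had a log2 fold change of −0.89 (edgeR adjusted p = 7.06e-06) and the kinase gene *Lyn* one of −0.25 (edgeR adjusted p = 0.00116). Genes of GC identity and positioning went both ways, with 6 higher and 8 lower of 22, where 11.8% and 9.92% of all genes were. With thinned cells these counts were 5 and 9, in the larger pool alone 4 and 3, in the smaller 2 and 3, and without a term for the pool 3 and 2. *Gpr183*, the oxysterol receptor EBI2 that draws B cells out of the follicle centre, was at 10.003 to 15.7 CPM (median 13.8) in untreated mice and 5.80 to 9.17 CPM (median 6.20) in treated mice, with no overlap (log2 fold change −0.89, standard error 0.204, edgeR adjusted p = 0.0013), and *Rgs13*, a GC regulator of chemokine receptor signals, at 86.5 to 125 CPM (median 96.0) in untreated mice and 39.1 to 89.3 CPM (median 68.5) in treated mice (log2 fold change −0.58, standard error 0.126, edgeR adjusted p = 0.000788). *Gcsam*, a GC adaptor that limits motility, rose, from 286 to 344 CPM (median 326) in untreated mice to 376 to 417 CPM (median 411) in treated mice, with no overlap (log2 fold change 0.32, standard error 0.0573, edgeR adjusted p = 6.21e-05), and *Id3*, an antagonist of E proteins, by 0.31 (edgeR adjusted p = 0.0148). *Ly75* itself was at 34.3 to 67.5 CPM (median 45.9) in untreated mice and 51.7 to 65.4 CPM (median 54.7) in treated mice and was not called (log2 fold change 0.19, standard error 0.0966, edgeR adjusted p = 0.159).

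**Figure D2:**
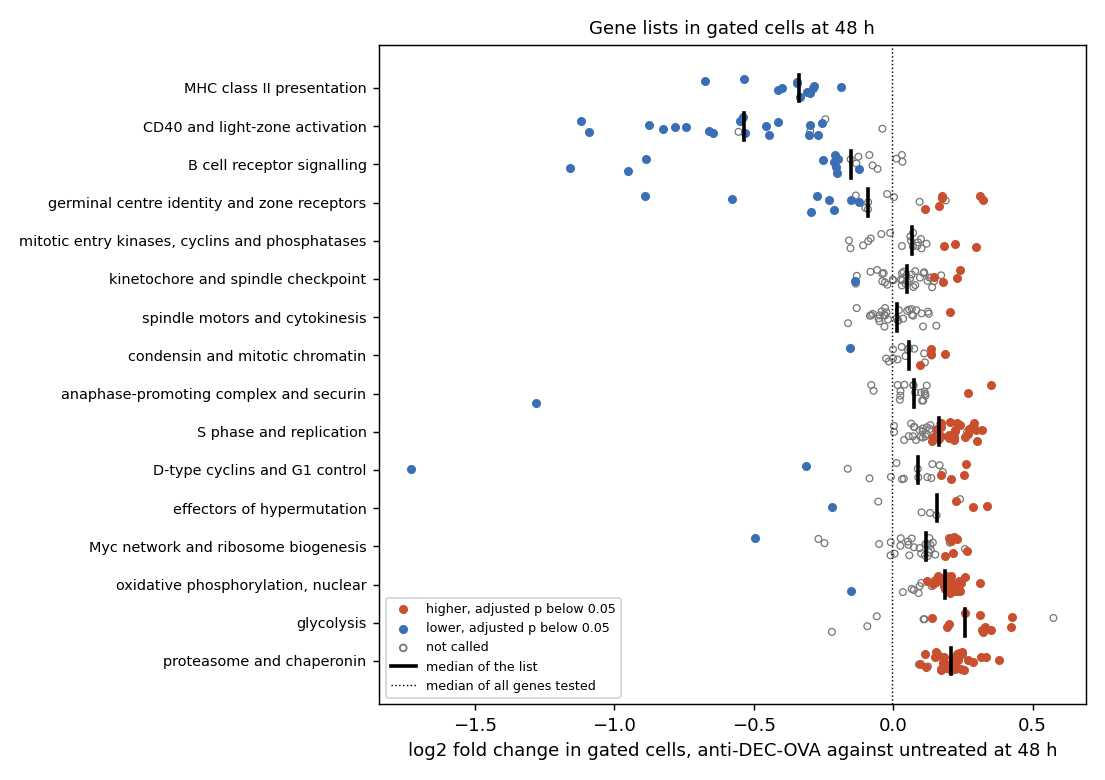
Log2 fold change of every tested member of 16 gene lists in gated cells at 48 h, treated against untreated (x axis), 1 row per list. Filled points passed an adjusted p of 0.05, bars mark the list median and the dotted line the median of all genes tested. All 12 MHC class II and all 22 CD40 and light-zone genes lie to the left of 0 (12 and 18 called), and all 35 proteasome and chaperonin genes to the right (33 called).

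Genes for energy and protein turnover rose. Of 35 genes for the proteasome and the CCT and mitochondrial chaperonins, 33 were higher and 0 lower (median 0.21), and for this and the next 2 lists the shares over all genes tested were 11.8% higher and 9.92% lower. *Hspd1* (0.38, edgeR adjusted p = 0.0199) and *Hspe1* (0.33, edgeR adjusted p = 0.0144) encode the mitochondrial chaperonin and its cap, *Psmb5* a catalytic proteasome subunit (0.32, edgeR adjusted p = 5.15e-05) and *Cct8* a CCT subunit (0.29, edgeR adjusted p = 0.00049). Of 36 nuclear genes for oxidative phosphorylation, 28 were higher and 1 lower (median 0.19). *Ndufab1* of complex I (0.31, edgeR adjusted p = 0.000154), *Atp5b* of ATP synthase (0.26, edgeR adjusted p = 0.000154) and *Ndufa6* (0.24, edgeR adjusted p = 2.08e-05) rose, and *Uqcrq* of complex III fell (−0.15, edgeR adjusted p = 0.0158). Of 17 glycolysis genes, 11 were higher and 0 lower (median 0.26). *Aldoa*, an enzyme of the middle of the pathway, was at 139.5 to 188 CPM (median 163) in untreated mice and 203 to 236 CPM (median 221) in treated mice, with no overlap (log2 fold change 0.43, standard error 0.0806, edgeR adjusted p = 0.000154). *Pgam1* (0.42), *Tpi1* (0.35) and *Eno1* (0.33) followed. With thinned cells the counts of higher genes were 30 of 35, 21 of 36 and 9 of 15. In the larger pool alone they were 13, 13 and 7, in the smaller 15, 14 and 8, and in B1-8hi cells 20, 20 and 9. Without a term for the pool they fell to 11 of 35, 6 of 36 and 4 of 17, with medians almost the same (0.21, 0.18 and 0.26). These lists also rose in other cells, with 15 of 35, 17 of 36 and 6 of 16 higher, where 7.45% of all genes were. Their medians there were 0.19, 0.18 and 0.20. A difference between the classes was called for 0 of 35, 0 of 36 and 0 of 16 genes.

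*Myc* was at 29.8 to 68.3 CPM (median 37.2) in untreated mice and 27.3 to 44.0 CPM (median 34.4) in treated mice and was not called (log2 fold change −0.25, standard error 0.183, edgeR adjusted p = 0.36). Of 35 genes of the Myc network and ribosome biogenesis, 7 were higher and 1 lower (median 0.12), where 11.8% of all genes tested were higher. The count of higher genes was 6 of 33 with thinned cells, 1 in either pool alone, 1 in B1-8hi cells and 0 without a term for the pool. Among the genes called, *Npm1* (0.27, edgeR adjusted p = 0.0417), *Fbl* (0.23) and *Pes1* (0.22) were higher and *Mxd4*, which opposes Myc, was lower (−0.50, edgeR adjusted p = 0.00021). Of 16 genes for serine, folate and amino-acid uptake, 3 were higher, *Shmt2* (0.39), *Psph* (0.36) and *Psat1* (0.23). Of 21 cholesterol genes, 3 were higher, among them *Idi1*, an isomerase of the pathway (0.33, edgeR adjusted p = 0.00265). This count was 2 with thinned cells and in the smaller pool alone, and 0 in the larger pool alone and without a term for the pool. In both of these lists 0 genes were lower (1 and 0 at an unadjusted p below 0.05 in edgeR).

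Of the Bcl-2 family, *Bcl2l1*, which encodes the survival protein Bcl-xL, fell (−0.50, edgeR adjusted p = 0.00615), as did *Pmaip1*, which encodes the death-promoting Noxa (−0.40, edgeR adjusted p = 0.0183), and the effector gene *Bax* rose (0.17, edgeR adjusted p = 0.011), 3 of 12 tested, where 21.7% of all genes were called. Plasma cell genes did not move together. *Prdm1*, the repressor that commits cells to the plasma cell fate, was at 0 to 6.49 CPM (median 4.67) in untreated mice and 0.248 to 2.97 CPM (median 0.983) in treated mice (log2 fold change −1.63, standard error 0.588, edgeR adjusted p = 0.0405), levels at which a mouse had few UMIs. *Ell2*, an elongation factor used by plasma cells, fell (−0.31) and *Jchain*, which joins antibody polymers, rose, from 695 to 997 CPM (median 936) in untreated mice to 1089.9 to 1387 CPM (median 1240.2) in treated mice, with no overlap (log2 fold change 0.45, standard error 0.0687, edgeR adjusted p = 6.18e-06). Of 11 tested memory and naive B cell genes, 3 were lower and 0 higher (9.92% of all genes were lower), *Fcer2a*, *Gpr183* and *Cd38* (−0.48, edgeR adjusted p = 0.0399). Of 15 interferon-stimulated and Schlafen genes, *Slfn2*, which guards lymphocyte quiescence, was the 1 gene called, at 29.8 to 56.5 CPM (median 45.7) in untreated mice and 13.1 to 33.6 CPM (median 20.045) in treated mice (log2 fold change −1.14, standard error 0.178, edgeR adjusted p = 1.02e-05). Of 7 dissociation stress genes 0 rose (2 at an unadjusted p below 0.05 in edgeR). *Jun* (−0.65, edgeR adjusted p = 0.0186) and *Junb* (−0.34, edgeR adjusted p = 0.00191) fell, where 9.92% of all genes were lower. With thinned cells 1 of the 7 was higher and 0 lower, and in the larger pool alone 0 and 2. In the smaller pool alone, and without a term for the pool, 0 were called in either direction.

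Beyond the lists and among genes with an average log2 CPM above 4, the largest fall was in *Rnpep*, an aminopeptidase gene, at 19.3 to 33.0 CPM (median 24.3) in untreated mice and 6.09 to 13.6 CPM (median 10.6) in treated mice, with no overlap (log2 fold change −1.34, standard error 0.125, edgeR adjusted p = 6.97e-11). The largest rise was in *Ide*, the insulin-degrading enzyme, at 7.42 to 14.1 CPM (median 10.4) in untreated mice and 19.5 to 34.9 CPM (median 25.3) in treated mice, with no overlap (log2 fold change 1.32, standard error 0.146, edgeR adjusted p = 6.95e-09). Both genes moved the same way in other cells (−1.74 for *Rnpep* and 1.31 for *Ide*). At 72 h, treated mice had 6.74, 8.21 and 13.5 CPM of *Rnpep* against 22.7, 25.3 and 30.8 in untreated mice, and 11.9, 18.8 and 26.7 CPM of *Ide* against 5.52, 9.01 and 11.2 (lowest, median and highest). *Btaf1*, a regulator of TATA-binding protein, was also among the 12 largest rises, at 64.6 to 90.5 CPM (median 70.1) in untreated mice and 91.4 to 150.2 CPM (median 106) in treated mice, with no overlap (log2 fold change 0.64, standard error 0.0565, edgeR adjusted p = 1.5e-11). *Btaf1* (chromosome 19 of GRCm39, 36903472 to 36991455) and *Ide* (37245688 to 37340729) lie near each other on that chromosome. *H2-Q6* (−0.89) and *H2-Q7* (−0.86), class I genes side by side on chromosome 17, fell, and because these paralogs are closely similar their separate values are uncertain. The other large falls were *Sub1* (−0.98) and the urea transporter gene *Slc14a1* (−0.86). The other large rises were *Camk2b* (0.80), *Nav2* (0.72), *Bcat1*, a transaminase of branched-chain amino acids (0.68), *Rgcc*, a cell-cycle regulator (0.68), *Selenop* (0.62), the sialyltransferase gene *St3gal6* (0.60), *Lrrc49* (0.59), *Bag2* (0.56), *Palm* (0.56) and the ubiquitin ligase gene *Nedd4* (0.56).

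**Figure D3:**
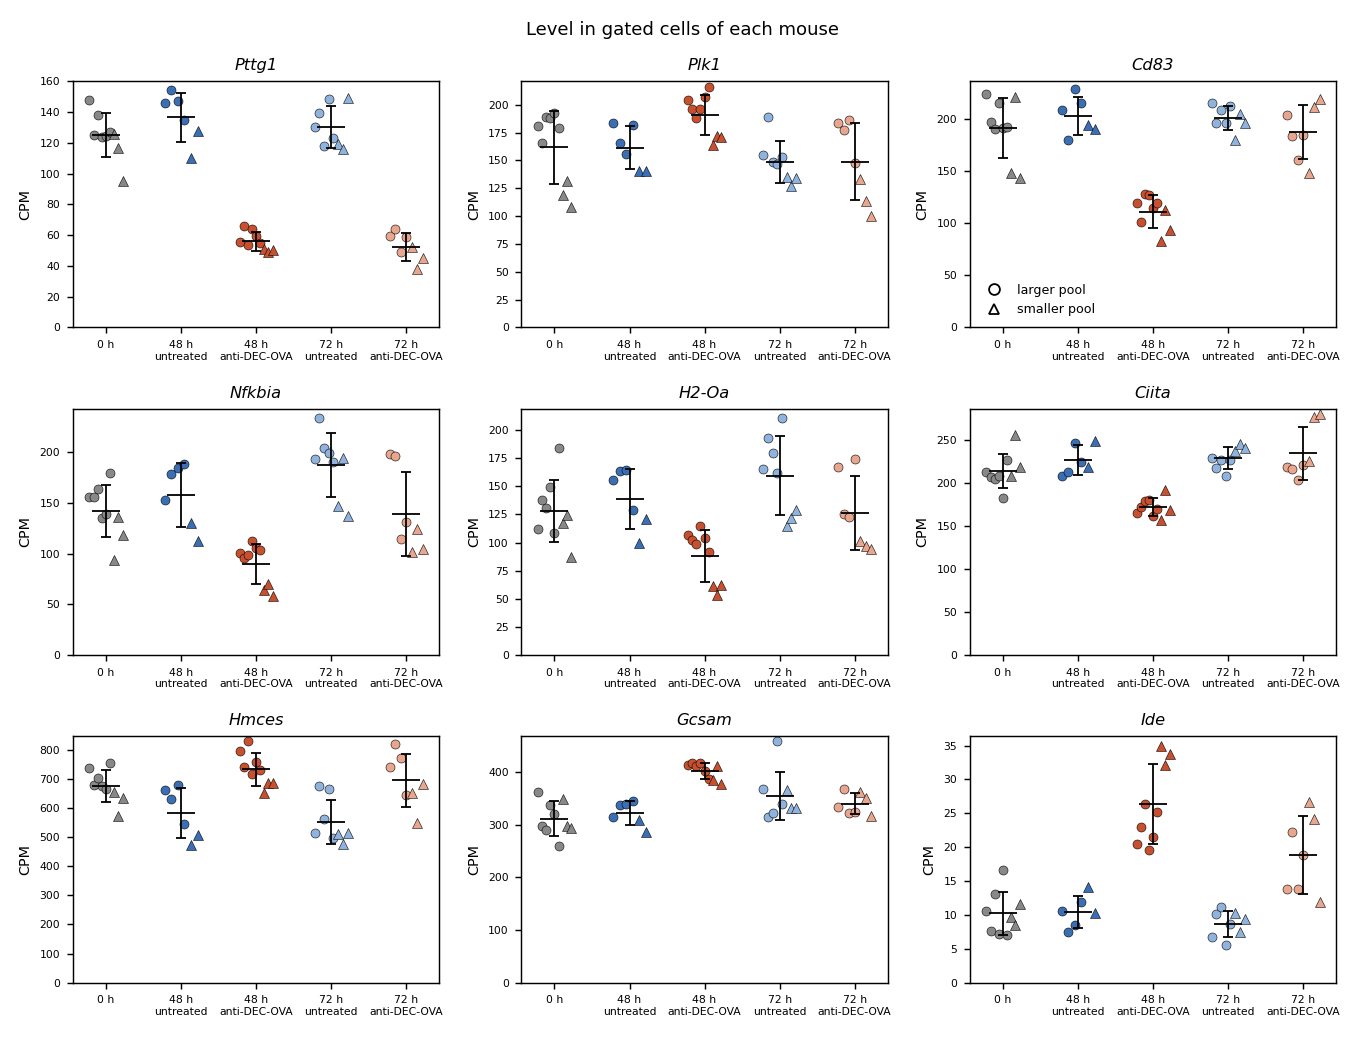
Level (CPM) of 9 genes in the gated cells of each mouse, by group and pool, with the group mean and SD as bars. *Cd83*, *Nfkbia*, *H2-Oa* and *Ciita* are lower at 48 h in treated mice and higher at 72 h than at 48 h by their medians, whereas *Pttg1* stays between 38.3 and 66.2 CPM in all treated mice at 48 h and 72 h.

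The effectors of hypermutation, which process the uracils left in antibody genes, were called in part. Of 9 genes, 3 rose and 1 fell (median 0.16), against 11.8% higher and 9.92% lower over all genes tested, and over all kept cells 8 of the 9 were higher, where 26.3% of all genes were. With thinned cells 2 were higher and 0 lower. *Hmces*, which shields abasic sites, was at 474 to 679 CPM (median 588) in untreated mice and 652 to 829.5 CPM (median 731) in treated mice (log2 fold change 0.34, standard error 0.0569, edgeR adjusted p = 3.23e-05). *Apex1*, the main abasic endonuclease, was at 73.7 to 116 CPM (median 76.2) in untreated mice and 82.4 to 119.5 CPM (median 103) in treated mice (log2 fold change 0.29, standard error 0.0987, edgeR adjusted p = 0.032), and *Neil1*, a glycosylase for oxidized bases, at 287 to 421 CPM (median 392) in untreated mice and 352 to 475 CPM (median 459) in treated mice (log2 fold change 0.22, standard error 0.0436, edgeR adjusted p = 0.000211). *Neil3*, a related glycosylase, was at 90.7 to 132 CPM (median 108) in untreated mice and 85.5 to 104 CPM (median 91.6) in treated mice (log2 fold change −0.22, standard error 0.0687, edgeR adjusted p = 0.0183). The other 5 were not called, with log2 fold changes of 0.24 for *Fam72a*, which promotes the loss of the glycosylase UNG2 (edgeR adjusted p = 0.0775), 0.16 for the mismatch repair gene *Msh6* (edgeR adjusted p = 0.0594), 0.13 for *Ung* (edgeR adjusted p = 0.432), 0.10 for *Polh*, a translesion polymerase (edgeR adjusted p = 0.145), and −0.05 for *Apex2* (edgeR adjusted p = 0.693). Over all kept cells the log2 fold changes were 0.52 for *Hmces*, 0.67 for *Fam72a* and 0.44 for *Polh*.

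Whether an effect was particular to gated cells was tested as the difference of the 48 h effect between gated and other cells of the same mice. Of 9491 genes tested, 100 differed (1.05%), 11 with a higher (0.116%) and 89 with a lower effect in gated cells (0.938%). Among the 89 were the gate genes *Mki67* and *Top2a*, whose values defined the classes and for which the test is void. Of 87 lower ones with a value in both classes, 40 had a log2 fold change above 0 in both classes, 6 below 0 in both, and 41 below 0 in gated but above 0 in other cells. Of the 89, 23 belong to the mitotic lists. The gate sets a ceiling for the summed level of its 6 genes in other cells. Its part in the differences of other mitotic genes and of S phase genes was not tested. *Ccnb2*, a mitotic cyclin, was at 172 to 326 CPM (median 284) in untreated mice and 209.9 to 327 CPM (median 282) in treated mice in gated cells, and in other cells rose from 16.1, 30.6 and 49.0 to 44.2, 83.5 and 114 CPM (lowest, median and highest), a difference of −1.37 (standard error 0.148, edgeR adjusted p = 9.37e-07). *Spc24*, a kinetochore gene, differed by −1.15 (standard error 0.188, edgeR adjusted p = 0.000718) and *Cenpw* by −0.69 (standard error 0.172, edgeR adjusted p = 0.0412).

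Of 23 genes of CD40 and LZ activation tested for a difference, 4 had a lower and 0 a higher effect in gated cells (0.938% and 0.116% of all genes tested for it), among them *Nfkbia* and *Il4i1*. *Nfkbia* had a log2 fold change of −0.09 (edgeR adjusted p = 0.609) in other cells, which did not pass the test, a difference of −0.73 (standard error 0.119, edgeR adjusted p = 0.000718). *Il4i1* differed by −0.84 (standard error 0.133, edgeR adjusted p = 0.000497), and of other lists *Fcer2a* by −0.50 (standard error 0.0873, edgeR adjusted p = 0.00157) and *Rgs13* by −0.49 (standard error 0.0910, edgeR adjusted p = 0.00304). *Sub1*, a transcriptional coactivator gene, was at 16.8, 74.7 and 194 CPM in other cells of untreated and 50.5, 162 and 536 CPM in those of treated mice (difference −2.08 (standard error 0.411, edgeR adjusted p = 0.00612)). *Pdia4*, an endoplasmic reticulum chaperone gene, differed by −1.76 (standard error 0.361, edgeR adjusted p = 0.00908), *Capg*, an actin-capping gene, by −1.48 (standard error 0.272, edgeR adjusted p = 0.00268), *Spn*, which encodes CD43, by −1.15 (standard error 0.241, edgeR adjusted p = 0.0108), and *Zeb2* by −1.10 (standard error 0.278, edgeR adjusted p = 0.044). In the other cells of treated mice the 11 plasma cell genes summed to 1140.4 to 17491 CPM, against 1022 to 5398 in untreated mice, and *Jchain* reached 7959 CPM in the highest treated mouse. Memory and naive B cell genes summed to 691 to 1151 CPM against 766 to 985. Myeloid and dendritic cell markers summed to 22.8 to 169.6 CPM (median 91.1) against 20.5 to 71.6 (median 43.9), and *Lyz2*, a lysozyme of macrophages and granulocytes, had medians of 71.4 and 16.7 CPM. *Lyz2* alone held 533 of the 869 UMIs of this list in treated mice. By median, *Cd68*, *Fcer1g*, *C1qb* and *Itgam* were also higher in treated mice, and *C1qa*, *C1qc* and *Adgre1* were lower. *Csf1r*, *S100a8* and *S100a9* had a median of 0 in both groups. The levels from the plasma cell sum onward are CPM of the UMIs as counted, with no TMM scaling. The part of such cells in these differences was not tested.

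Effects that were higher in gated than in other cells differed with the setting. Leaving out 1 mouse took the 11 genes to between 3 and 14. With the gate of 4 markers 250 genes had a higher and 420 a lower effect, which included 3 of the 11 and 43 of the 89. With thinned cells 13 genes were called in this direction, and 0 of them were among the 11 given here. Of the 89 with a lower effect, 35 were among the 55 called with thinned cells. Besides *Ccnd3* they were led by *Map2k6*, a kinase gene upstream of p38 (difference 0.62 (standard error 0.136, edgeR adjusted p = 0.0145)), *Acot13*, an acyl-CoA thioesterase gene (0.57), *Lrif1* (0.47), *Lyl1* (0.47), *Sox5* (0.45), *Arl6ip1* (0.39) and the histone demethylase gene *Kdm6a* (0.35). Of these 7, *Lyl1* was itself called in gated cells (0.22, edgeR adjusted p = 0.0319). The other 6 were not, and their values in other cells ran from −0.51 (*Sox5*) to −0.31 (*Arl6ip1*).

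**Figure D4:**
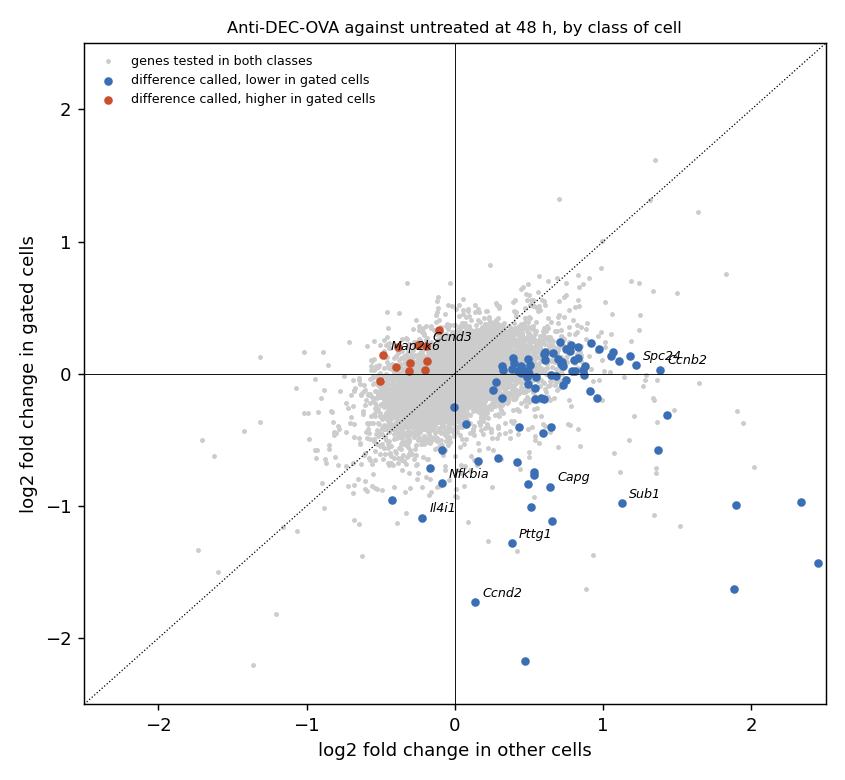
Log2 fold change at 48 h, treated against untreated, in other cells (x axis) and gated cells (y axis) for the 9020 genes tested in both classes, of which 1 lies outside the axes. Coloured points are genes whose effect differed between the classes, and the dotted line marks equal effects. *Pttg1* lies low in gated cells and above 0 in other cells, while *Ccnb2* and *Spc24* lie near 0 in gated cells.

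Mutations, which the gate did not use, were counted over 361 bases of the B1-8hi heavy and 328 of the light chain as differences from the most frequent sequence at 0 h. Gated cells of untreated mice carried 2.27, 2.68 and 3.39 mutations per cell (lowest, median and highest of 6 mice) and those of treated mice 1.58, 2.09 and 2.78 (9 mice). The groups overlapped, with means of 2.74 ± 0.430 and 2.15 ± 0.372 (SD). The difference was −0.593 mutations per cell (p = 0.00381, two-sided exact permutation of mice within pools, with 1147 untreated and 3245 treated cells). For the larger pool alone it was −0.575 (p = 0.0333 by exact permutation of 6 and 4 mice). For the smaller pool alone it was −0.629 (p = 0.1 by exact permutation, the floor for 3 and 2 mice). When cells of a mouse with identical heavy and light chains were counted as 1, it was −0.374 (p = 0.00381 by the same exact permutation).

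Within a mouse, gated cells carried fewer mutations than other cells in 6 of 6 untreated and 9 of 9 treated mice. The mean difference was −0.939 ± 0.224 in untreated mice (SD; p = 0.03125 by two-sided exact sign flips, the floor for 6 mice) and −0.787 ± 0.258 in treated mice (p = 0.003906 by exact sign flips, the floor for 9 mice). In untreated mice the other cells held 3.30, 3.61 and 4.09 mutations (lowest, median and highest) and in treated mice 1.85, 3.01 and 3.66. With identical sequence pairs of a mouse and class counted once the differences were −0.487 in untreated mice (p = 0.03125 by exact sign flips) and −0.458 in treated mice (p = 0.01172 by exact sign flips), and 1 of the 9 treated mice was then higher in gated cells. With the gate of 4 markers the differences were −0.443 and −0.389, in untreated and treated mice (p = 0.03125 and 0.007812 by exact sign flips). At 0 h, gated cells carried 1.71, 2.00 and 2.64 mutations (lowest, median and highest), and at 72 h they carried 3.53, 3.82 and 4.13 in untreated and 2.63, 3.38 and 3.66 in treated mice. The V(D)J contigs had medians of 44 heavy-chain and 172 light-chain UMIs, over both groups.

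**Figure D5:**
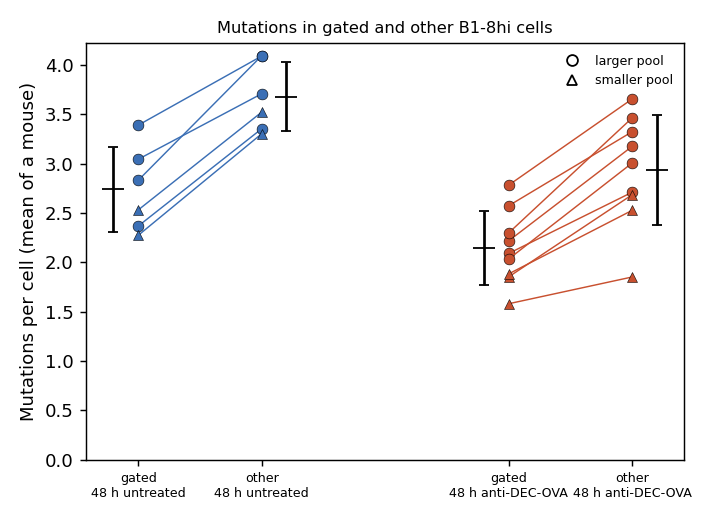
Mean mutations per B1-8hi cell of each mouse at 48 h in gated and other cells (y axis), with lines joining the 2 classes of a mouse, the mean and SD as bars, and the pool as symbol. Every line rises from gated to other cells, and treated mice lie lower (gated means 2.15 against 2.74).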

How the data were processed

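Single-cell 5′ RNA-seq, V(D)J and hashtag UMI counts of 2 pools of 39 mice were analysed as the authors deposited them. Their processing notes name Cell Ranger 6.0.1, Seurat 5.1.0 and mm39, while the headers of the deposited matrices name Cell Ranger 8.0.1. Lists of mice, groups and hashtags, also made by the authors, gave the groups. Hashtags were called with HTODemux (Seurat 5.3.0, quantile 0.99), and a cell was kept where its hashtags matched exactly those of 1 mouse, which left out cells with more. Kept cells had at least 200 genes and under 10% mitochondrial UMIs. The 2 pools shared 43 barcodes among 23698 kept cells. No other doublet caller was run.

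UMI counts of gated cells were summed per mouse and fitted with edgeR 4.0.16 (R 4.3.3) by quasi-likelihood, with filterByExpr, TMM, all 5 groups and the pool as covariate, and Benjamini-Hochberg adjustment at 0.05. The difference between classes was fitted in the same mice with mouse as a block, since both sums came from 1 animal. Mutations were tested by exact permutation. Fits were also run on simulated data, with an outcome not reported here. Alternatives included DESeq2 1.42.0, other gates, thinning to 2871 UMIs and leaving out each mouse.

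Named genes were the 12 largest rises and 12 largest falls with average log2 CPM above 4 and 1 direction in both pools. Also named were up to 4 called members of each list, all 9 effectors of hypermutation, *Ly75*, *Ccnd2*, *Ccnd3* and *Myc*. Last came the 8 largest differences between classes in each direction, again with average log2 CPM above 4. Immunoglobulin genes, unnamed gene models and sex-linked markers were left out of the first and last. Some genes that this rule takes in are not reported here. Members and lists were chosen with earlier results of these data known.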

Additional observations from a re-analysis of the deposited data

Results flagged for a closer look

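Among 248 sets of mouse values tested, 7 had 1 mouse standing apart from its group in gated cells, where chance gives about 1 in 20. A set took mice of both pools together, so a mouse apart and a difference between pools were not separated. In untreated mice at 48 h, replicates 5 and 6 were those of the smaller pool. Replicate 6 was low for *Rrm2* (195.0 CPM, the others 269 to 312) and high for *Sox5* (384.0 CPM, the others 186 to 255). Replicate 5 was high for *Pdia4* (87.0 CPM, the others 32.7 to 50.5) and low for *Arl6ip1* (532.0 CPM, the others 616 to 648). Replicate 4, of the larger pool, was high for *Apex1* (116.0 CPM, the others 73.7 to 78.5) and *Tpi1* (350.0 CPM, the others 256 to 282). In treated mice replicate 5, also of the larger pool, was low for *Msh6* (83.6 CPM, the others 101 to 112).

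The 48 h effect differed between gated and other cells, by edgeR's test with mouse as a block, for 16 named genes. All 16 had an average log2 CPM above 4. Below that level larger log2 differences were called, such as *S100a10* (−3.85) and *Lgals3* (−3.46), lower in gated cells. On the log2 scale the effect in gated cells was lower for *Sub1* (−2.08), *Pdia4* (−1.76), *Pttg1* (−1.67), *Capg* (−1.48), *Ccnb2* (−1.37), *Spc24* (−1.15), *Spn* (−1.15) and *Zeb2* (−1.1). It was higher for *Map2k6* (0.62), *Acot13* (0.57), *Lrif1* (0.47), *Lyl1* (0.47), *Sox5* (0.45), *Ccnd3* (0.42), *Arl6ip1* (0.39) and *Kdm6a* (0.35).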

How the results depend on the processing

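The counts in gated cells (1149 higher, 969 lower) were 385 and 431 in the larger pool alone, 383 and 346 in the smaller, 627 and 574 in B1-8hi cells only, 186 and 238 without the pool term, 687 and 654 with thinned cells, and 1171 and 993 with DESeq2. Leaving out 1 mouse gave 759 (without untreated replicate 2) to 1109 higher and 725 to 1132 lower. The counts of differences between classes (11 higher, 89 lower) were 6 and 149 in the larger pool, 0 (158 at an unadjusted p below 0.05 in edgeR) and 15 in the smaller, 3 and 26 in B1-8hi cells, 250 and 420 with the gate of 4 markers, 13 and 55 with thinned cells, and 8 and 73 without the replicate block by mouse. Leaving out 1 mouse gave 3 to 14 higher, at 7 or fewer for each mouse but treated replicates 7 and 8, and 53 to 160 lower, with 53 and 57 without untreated replicates 1 and 2 and 160 without treated replicate 7. The cause of these moves was not tested. Mutation differences that missed 0.05 in 1 pool had too few mice to pass it by exact tests: −0.6291 (treated minus untreated, smaller pool, p = 0.1), −0.9032 and −1.0105 (gated minus other, untreated, larger and smaller pool, p = 0.125 and 0.5) and −0.5824 (treated, smaller pool, p = 0.25). Of 3279 values of 110 called named results under alternatives, 2831 kept direction and call and 447 lost the call. The 1 that reversed was the *Arl6ip1* difference (−0.0355, gate of 4 markers). Of these values 1650 came from leaving out 1 mouse, and 1476 of those kept direction and call. The call was lost in 47 of 94 values without the pool term, 84 of 220 in a pool alone and 34 of 108 with thinned cells. Of 216 values of 7 uncalled results, 13 gained the call and 6 reversed. The reversals were in *Ung* (−0.0139, larger pool), *Apex2* (0.0590 in B1-8hi cells, 0.1469 with the gate of 4 markers, 0.0213 thinned), *Polh* (−0.0817, gate of 4 markers) and *Ly75* (−0.1154, smaller pool).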
